A study of Arabidopsis thaliana with 8 samples.

Results

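Expansins are plant wall proteins, and the Arabidopsis thaliana superfamily listed here has 34 loci in 4 subfamilies: 25 alpha-expansins (EXPA), 5 beta-expansins (EXPB), 3 members of expansin-like A (EXLA) and 1 of expansin-like B (EXLB). Members were found by their locus: each non-control probe names a RefSeq transcript, and the probes whose transcript belongs to a listed locus were taken, with the brightest kept probe standing for the locus. In this way 33 of the 34 loci had a probe. No probe matched EXPB5. Of the 33, 25 exceeded background in both replicates of some group and were tested, among 20629 genes tested in all. The other 8 (EXPA21 to EXPA26, EXPB2 and EXPB4) did not pass that filter.

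Expansins loosen the cell wall at acidic pH without cutting its polymers, by disturbing the contacts between cellulose and the matrix, and so let a wall under turgor extend. The alpha subfamily is the classic mediator of acid growth, in which plasma membrane proton pumps acidify the wall and expansins act in the acidified wall. Beta-expansins have the same fold, while expansin-like proteins share the domains but have no established loosening activity. EXPA7 and EXPA18 are known as the root hair expansins, expressed in the epidermal cells that form hairs, and EXPA10 is known from antisense plants with smaller leaves.

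Total RNA of wild-type plants of the ecotype Columbia-0 (Col-0) was measured on one-colour Agilent arrays, in 4 groups of 2 biological replicates each. The groups were the whole plant 2 days after germination, roots included, the above-ground part of plants 21 days after germination, and young and mature leaves of plants of the same later age. Young leaves were the newest 3 leaves, and mature leaves were the older 3, without the cotyledons. All plants grew on plates under long days with no further treatment, and the number of plants in a sample is not given in the sources used here. The design text names as comparisons the 21-day against the 2-day plants, and the mature against the young leaves.

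A level below is the log2 of the processed signal minus the log2 of the array's 75th percentile, so that 0 is the brightness of that percentile. Levels are set against each other only within a gene, since probes differ in how brightly they report. From 66.7% to 74.6% of probes were well above background, a flag of the scanner software, and the lowest signal so flagged lay between -7.18 and -6.37 on this scale, highest in mature leaves. Replicates correlated at 0.994 to 0.996 across genes, which are not independent replicates. The 2-day and aerial arrays lay on 1 slide and the leaf arrays on another, so that each of the named comparisons lies within a slide. The tissue labels were checked against lists of marker genes. Of 13 root markers outside the root hair, 13 were detected on each 2-day array, against 6 or 7 on the 21-day arrays. Their summed linear level, in multiples of the 75th percentile, was 213 and 233 against 2.18 to 11.5, most of it from PYK10 in the 2-day plants, and without PYK10 it was 11.1 and 12.7 against 1.79 to 2.48. Of 10 floral identity genes 9 and 10 were detected on the aerial arrays, 5 to 7 on the leaf arrays and 2 and 3 on the 2-day arrays. These are bulk samples, in which fewer cells of a type and less RNA per cell cannot be told apart. The 2-day and 21-day groups also differ in organ as well as age.

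Members differed in where their representative probe was measured. Of the 25 tested members, 16 were well above background on all 8 arrays (83.0% of genes tested were). A group of 5, namely EXPA2, EXPA7, EXPA12, EXPA16 and EXPA18, was well above background on both 2-day arrays and on no 21-day array (4.99% of genes tested). Only the 2-day samples included roots, so organ and age cannot be told apart for these 5. The other 4, EXPA4, EXPA17, EXLA2 and EXLA3, were detected on 5 to 7 arrays. Both mature leaf arrays lay below all 6 others in 12 members that the other groups all measured (29.0% of genes tested). The highest group mean was that of the 2-day plants in 16 members, of young leaves in 4, of the aerial part in 3 and of mature leaves in 2. The 16 include the group of 5 above, which passed the filter through the 2-day arrays alone, so their place was close to fixed in advance. Of all genes tested 40.8% had their highest mean in the 2-day plants, and the highest mean is a ranking that need not rest on a called difference. The map of levels by array shows these blocks, with the crosses of undetected values in the rows of the seedling members.

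**Figure D1:**
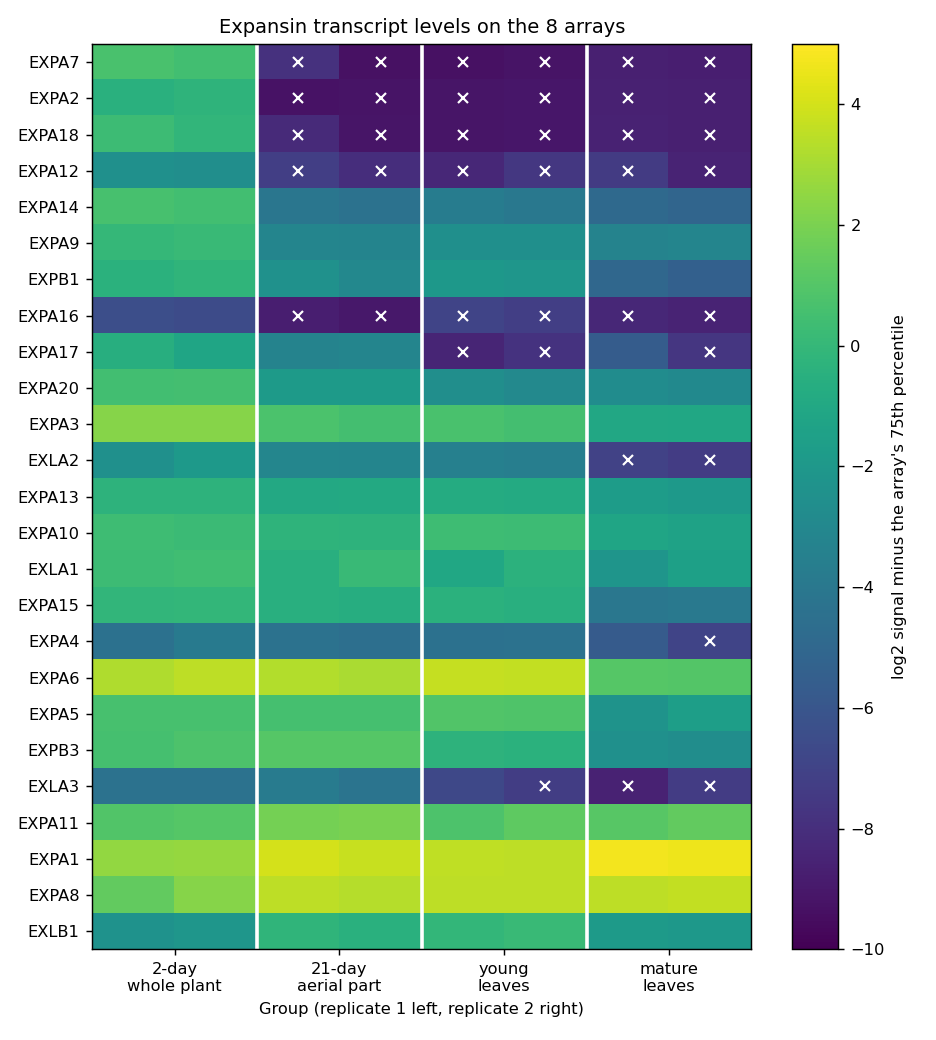
Levels of the 25 tested expansins (rows) on the 8 arrays (columns), as log2 signal minus the array's 75th percentile, ordered by the change from the 2-day whole plant to the 21-day aerial part. White crosses mark values not well above background, and colours are to be compared within a row: EXPA7, EXPA2, EXPA18 and EXPA12 carry crosses on all 6 arrays of 21-day plants.

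The root hair expansins were among the members with the largest falls. EXPA7 (AT1G12560) had levels of 0.67 and 0.44 in the 2-day plants, against -7.87 and -9.31 in the aerial part, -9.31 and -9.20 in young leaves, and -8.68 and -8.75 in mature leaves. EXPA18 (AT1G62980) stood at 0.25 and -0.14 in the 2-day plants, at -8.23 and -9.16 in the aerial part, at -9.15 and -9.07 in young leaves and at -8.58 and -8.65 in mature leaves. Both genes were high on the 2-day arrays only and were not well above background on any of the other 6. They passed the filter through the 2-day arrays alone, so a rise was hardly possible. In the comparison of the aerial part with the 2-day plants, EXPA7 fell by 9.15 ± 0.43 on the log2 scale (SE, n = 2 arrays per group, limma, Benjamini-Hochberg adjusted p = 1.17e-05), and EXPA18 fell by 8.75 ± 0.30 (limma, adjusted p = 3.92e-06). Since the 21-day signals were not well above background, the fold is given as a bound, which takes for each undetected array the higher of the probe's own signal and the lowest signal flagged there: in the aerial part EXPA7 was lower by a factor of at least 191 and EXPA18 by at least 135.

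EXPA2 and EXPA12 had the same distribution. EXPA2 (AT5G05290), known from germinating seeds, had levels of -0.49 and -0.25 in the 2-day plants and of -9.27 and -9.19 in the aerial part, -9.18 and -9.09 in young leaves and -8.60 and -8.65 in mature leaves. EXPA12 (AT3G15370) had -2.50 and -2.56 in the 2-day plants, -7.20 and -8.04 in the aerial part, -8.33 and -7.57 in young leaves and -7.38 and -8.53 in mature leaves. Both genes passed the filter through the 2-day arrays alone, so lower 21-day signals were close to fixed in advance. EXPA2 was at least 100-fold lower in the aerial part (log2 fold change -8.85 ± 0.10, limma, adjusted p = 9.88e-08). EXPA12 was at least 22.5-fold lower (-5.09 ± 0.48, limma, adjusted p = 0.000173). EXPA16 (AT3G55500), the fifth of these members, lay close to the detection limit even in the seedling, with a mean level of -6.49 there against -8.88 in the aerial part. Its log2 change of -2.38 ± 0.16 (limma, adjusted p = 4.89e-05) came with a bound of at least 1.44-fold and was not called with normexp background correction, where the log2 change was 0.01, or without a filter on dim probes, where it was 0.05. A second EXPA16 probe, which did not pass the filter, was well above background on 1 of the 2-day and 1 of the aerial arrays and lay between -7.30 and -6.30 in all groups, so the probes of EXPA16 do not both show it in the seedling alone.

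The regulators and wall proteins of root hairs followed the same pattern. The list held 19 root hair genes, chosen from general knowledge, of which 18 were tested. In the aerial part 18 of 18 were lower than in the 2-day plants, as were 40.4% of measurable genes. The median log2 change was -5.29 against -0.07 over all genes. With only probes detected on all arrays, a filter that drops most of the list, 2 were lower. RHD6 (AT1G66470), the transcription factor at the head of root hair development, had levels of -1.50 and -1.24 in the 2-day plants and lay between -8.83 and -7.77 on the other 6 arrays. RSL4 (AT1G27740), which sets root hair length, had -0.62 and -0.91 in the 2-day plants and between -8.82 and -8.17 elsewhere. Both were undetected on all 21-day arrays, with bounds on the fold difference of at least 50.3 for RHD6 and at least 76.5 for RSL4. XTH14 (AT4G25820), a xyloglucan-modifying enzyme of the root hair list, fell by 10.05 ± 0.56 on the log2 scale, and PRP1 (AT1G54970), a proline-rich wall protein, was at least 130-fold lower (limma, adjusted p = 2.22e-05 and 7.52e-06). XTH14 was well above background on only 1 of the aerial arrays, with levels of -6.20 and -8.08 there, so the size of its fall rests on signals near the floor. Of the 18 tested root hair genes, 7 were well above background on the 2-day arrays alone: RHD6, RSL1, RSL4, LRX1, LRX2, PRP1 and ADF11. These 7, like XTH14, IRE and XTH26, passed the filter through the 2-day arrays alone, so a rise was hardly possible for them. The summed level of the list was 19.9 and 17.5 on the 2-day arrays and between 0.659 and 1.12 on the others. Root hair and other root markers thus moved with the seedling expansins, as did all 10 of 10 seed storage genes, which were lower in the aerial part with a median of -4.76. Most of these storage genes too passed the filter through the 2-day arrays alone. The part of these lists in the result was not tested.

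**Figure D2:**
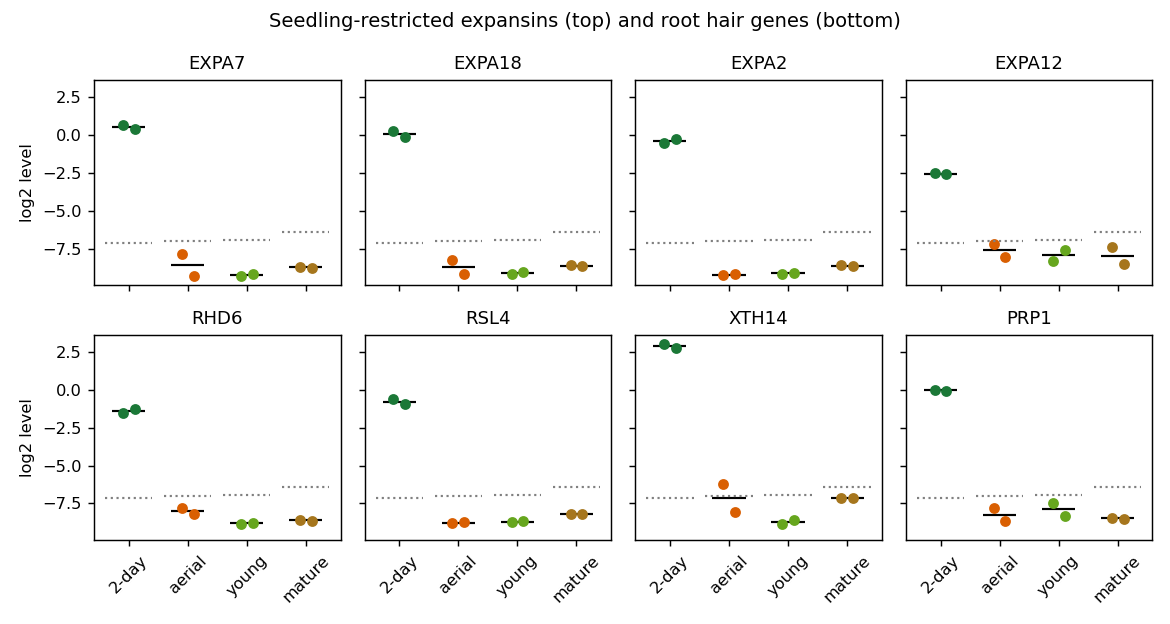
Levels (log2 signal minus the array's 75th percentile) of 4 expansins detected on the 2-day arrays alone, top, and 4 root hair genes, bottom, on each array (points). Black bars are group means, and dotted lines are the mean of the lowest signals flagged as well above background in each group. In these 8 genes the 2-day points lie far above the dotted line, and in the expansins, RHD6, RSL4 and PRP1 all 21-day points lie below it.

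Most members were lower in the aerial part of the older plants than in the seedling, while a few bright ones were higher. Of the 25 tested members 15 were lower and 5 higher, while 5 were not called (limma, adjusted p under 0.05). The 15 include EXPA2, EXPA7, EXPA12, EXPA16 and EXPA18, which passed the filter through the 2-day arrays alone and could hardly be higher. They also enter the median and the subfamily counts below. With only probes detected on all arrays, 8 members were lower and 5 higher. Of all genes that could be measured in this comparison 40.4% were lower and 34.8% higher. The median log2 change of the members was -0.64, against -0.07 for all genes. The summed linear level of the 33 members on the array, which the brightest probes dominate, was 41.2 and 46.0 on the 2-day, 50.7 and 45.8 on the aerial, 47.3 and 46.5 on the young leaf and 44.9 and 44.2 on the mature leaf arrays. Of 19 alpha-expansins 13 were lower and 3 higher, and of 2 beta-expansins 1 was lower and 1 higher. Of the 3 tested EXLA members 1 was lower, and the 1 EXLB member was higher.

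Besides the members detected on the 2-day arrays alone, the alpha-expansins that fell most were EXPA14 (AT5G56320), known from lateral root formation, and EXPA9 (AT5G02260). EXPA14 had levels of 0.61 and 0.45 in the 2-day plants and -4.12 and -4.33 in the aerial part, a log2 change of -4.76 ± 0.15, or 27.1-fold lower (limma, adjusted p = 2.52e-06). It was still well above background on every leaf array, with group means of -3.83 in young and -5.01 in mature leaves. EXPA9 went from a group mean of 0.09 to -3.20 (log2 change -3.29 ± 0.09), and EXPA20 (AT4G38210) from 0.47 to -1.81 (-2.28 ± 0.12). Smaller falls were called for EXPA3 (-1.63), EXPA13 (-0.64), EXPA10 (-0.56) and EXPA15 (-0.47). EXPB1 (AT2G20750) had a log2 change of -2.40 ± 0.23, and EXLA2 (AT4G38400) of -0.95 ± 0.21. The 5 members without a call were EXPA4, EXPA5, EXPA6, EXLA1 and EXLA3, with log2 changes from -0.50 to 0.36. EXPA6 was called lower without replicate 1 of the 2-day plants (-0.33, limma, adjusted p = 0.029) and with spike-in scaling (-0.47).

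The members that were higher at 21 days were detected in all 4 groups. EXPA1 (AT1G69530), known from leaves and guard cells, had levels of 2.55 and 2.62 in the 2-day plants, 4.02 and 3.72 in the aerial part, 3.57 and 3.52 in young leaves and 4.74 and 4.61 in mature leaves. EXPA8 (AT2G40610) had 1.37 and 2.27 in the 2-day plants, 3.51 and 3.36 in the aerial part, 3.53 and 3.48 in young leaves, and 3.49 and 3.64 in mature leaves. The 2-day arrays were the lowest for both genes and overlapped no other group, although the 2-day replicates of EXPA8 lay 0.90 apart. EXPA1 rose by 1.29 ± 0.11 on the log2 scale, or 2.44-fold (limma, adjusted p = 0.000135), and EXPA8 by 1.62 ± 0.28, or 3.07-fold (limma, adjusted p = 0.0023). EXLB1 (AT4G17030), the lone expansin-like B gene, had levels of -2.32 and -2.13 in the 2-day plants, -0.17 and -0.46 in the aerial part, -0.04 and 0.17 in young leaves and -1.84 and -2.01 in mature leaves. It was low in the seedling and in mature leaves and high in the aerial part and young leaves, with a rise of 1.92 ± 0.14, or 3.78-fold, between the 2-day plants and the aerial part (limma, adjusted p = 6.37e-05).

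The fourth and the fifth of the higher members had smaller changes. EXPA11 (AT1G20190) stood at 0.95 and 1.05 in the 2-day plants, 1.88 and 1.97 in the aerial part, 0.83 and 1.3 in young leaves and 1.1 and 1.41 in mature leaves. Its aerial arrays lay above the other 6, with a rise of 0.92 ± 0.18 over the seedling (limma, adjusted p = 0.0039). EXPB3 (AT4G28250) rose by 0.32 ± 0.11 (limma, adjusted p = 0.038), from 0.60 and 0.81 to 1.02 and 1.02. The call for EXPB3 was lost without replicate 1 of the 2-day plants (adjusted p = 0.164), without replicate 1 or 2 of the aerial part (0.116 and 0.113) and without either replicate of young leaves (0.057), as well as with a replicate block (0.054), with only the 4 arrays compared (0.0517) and with spike-in scaling, where the log2 change was 0.03. That for EXPA17 (AT4G01630), which fell by 2.37 ± 0.63 (limma, adjusted p = 0.0148), was lost without replicate 1 of the 2-day plants (adjusted p = 0.084) and without replicate 1 or 2 of the aerial part (0.0586 and 0.0527).

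**Figure D3:**
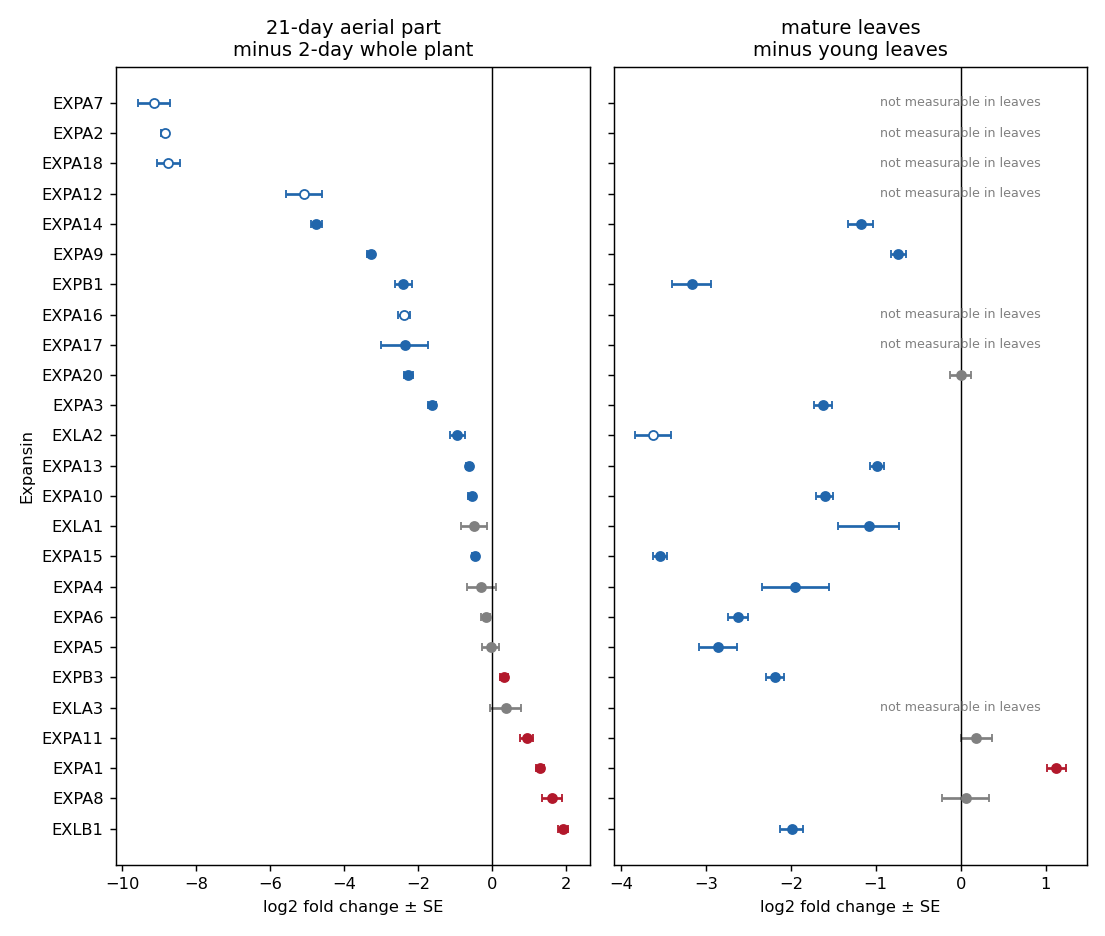
Log2 fold changes with standard errors from limma for the 25 tested expansins, 21-day aerial part against 2-day whole plant (left) and mature against young leaves (right, on a narrower axis), with 2 arrays per group. Red marks members called higher, blue lower and grey not called, and open circles mark members undetected on every array of the lower group, whose true change is at least the bound given in the text: on the right, EXPA1 is the only red point.

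Leaf maturation was accompanied by lower levels of most leaf-expressed expansins. In the comparison of mature with young leaves, 18 of the 25 members could be measured, meaning that they exceeded background in both replicates of either leaf class. Of these 14 were lower in mature leaves and 1 was higher, while EXPA8, EXPA11 and EXPA20 were not called (log2 changes 0.06, 0.19 and -0.00). Of all genes measurable in this comparison 38.1% were lower and 35.9% higher. The median log2 change of the 18 members was -1.61, against 0.04 over all genes tested. All 4 subfamilies had lower members: 9 of 13 measurable alpha-expansins, both beta-expansins, both measurable EXLA members and EXLB1.

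The largest falls were found in EXLA2, EXPA15, EXPB1 and EXPA5. EXLA2 had levels of -3.49 and -3.61 in young leaves and of -7.02 and -7.32 in mature leaves, where it was undetected on both arrays. It had -2.50 and -1.90 in the 2-day plants and -3.10 and -3.19 in the aerial part. In mature leaves it was at least 7.26-fold lower than in young leaves (log2 change -3.62 ± 0.21, limma, adjusted p = 2.90e-05). EXPA15 (AT2G03090) had -0.15 and -0.07 in the 2-day plants, -0.52 and -0.64 in the aerial part, -0.41 and -0.51 in young leaves and -4.07 and -3.95 in mature leaves. Its 2-day, aerial and young leaf arrays lay within a narrow band, and the mature arrays stood far below them, with a log2 change of -3.54 ± 0.08, or 11.7-fold lower than young leaves (limma, adjusted p = 2.21e-06). EXPB1 had levels of -0.44 and -0.19 in the 2-day plants, -2.42 and -3.01 in the aerial part, -1.98 and -2.10 in young leaves and -5.01 and -5.40 in mature leaves. EXPA5 (AT3G29030) had 0.62 and 0.65 in the 2-day plants, 0.58 and 0.59 in the aerial part, 0.94 and 0.89 in young leaves, and -2.32 and -1.57 in mature leaves. For both genes the mature arrays lay below all others, and the log2 change from young to mature leaves was -3.16 ± 0.23 for EXPB1 and -2.86 ± 0.23 for EXPA5 (limma, adjusted p = 6.70e-05 and 9.67e-05).

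EXPA6 (AT2G28950) had 1 of the 3 brightest member probes in the 2-day, aerial and young leaf groups, and not in mature leaves, a ranking used only to choose which members to show. Its levels were 3.22 and 3.51 in the 2-day plants, 3.25 and 3.11 in the aerial part, 3.68 and 3.60 in young leaves and 1.04 and 1.0 in mature leaves. The first 3 groups lay within a narrow range, and mature leaves were 6.15-fold below young leaves (log2 change -2.62 ± 0.11, limma, adjusted p = 1.07e-05). EXPA3 (AT2G37640) stepped down in both comparisons, from 2.26 and 2.28 in the 2-day plants to 0.74 and 0.54 in the aerial part, and from 0.68 and 0.49 in young to -0.99 and -1.09 in mature leaves, with log2 changes of -1.63 ± 0.10 and -1.62 ± 0.10. EXPA10 (AT1G26770), the gene of the antisense plants with smaller leaves, had a mean of 0.33 in young leaves and -1.27 in mature leaves, a log2 change of -1.60 ± 0.10. Further falls were called for EXPB3 (-2.19), EXLB1 (-1.99), EXPA4 (-1.94), EXPA14 (-1.18), EXLA1 (-1.08), EXPA13 (-0.99) and EXPA9 (-0.73). The call for EXLA1 was lost without replicate 2 of young leaves (adjusted p = 0.159), without replicate 1 of mature leaves (0.155) and without either 2-day array (0.0638), as it was with quantile or median scaling. With normexp background correction the dim members EXPA4, EXPA9, EXPA14 and EXLA2 had log2 changes of 0.01, -0.15, 0.06 and -0.25 in mature leaves and were not called.

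EXPA1 was the only one of the 18 that rose. Its mature arrays, at 4.74 and 4.61, lay above the 6 others, and the rise over young leaves was 1.13 ± 0.11 on the log2 scale, or 2.18-fold (limma, adjusted p = 0.000261). It was also the only member higher in both comparisons, as were 19.8% of genes tested. When scaled by 226 spike-in spots and not by the 75th percentile, the median of all genes shifted to -0.87 in mature against young leaves, and the change of EXPA1 was 0.22 (limma, adjusted p = 0.25). All 14 falls were called with that scaling too, but it lowers every gene in this comparison and so could hardly have undone them. EXPA8, EXPA11 and EXPA20, close to 0 with the main scaling, had changes of -0.85, -0.72 and -0.91 with the spike-in scaling, near the median of all genes under it. The markers of dividing cells moved with the expansins: 8 of 8 were lower in mature than in young leaves, with a median of -4.48 (38.1% of measurable genes were lower). Their summed level was 6.60 and 6.55 in young and 0.346 and 0.325 in mature leaves. Of the 8 green leaf genes 5 were higher, with a median of 0.38 over the list (35.9% of measurable genes were higher). The part of these lists in the result was not tested.

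**Figure D4:**
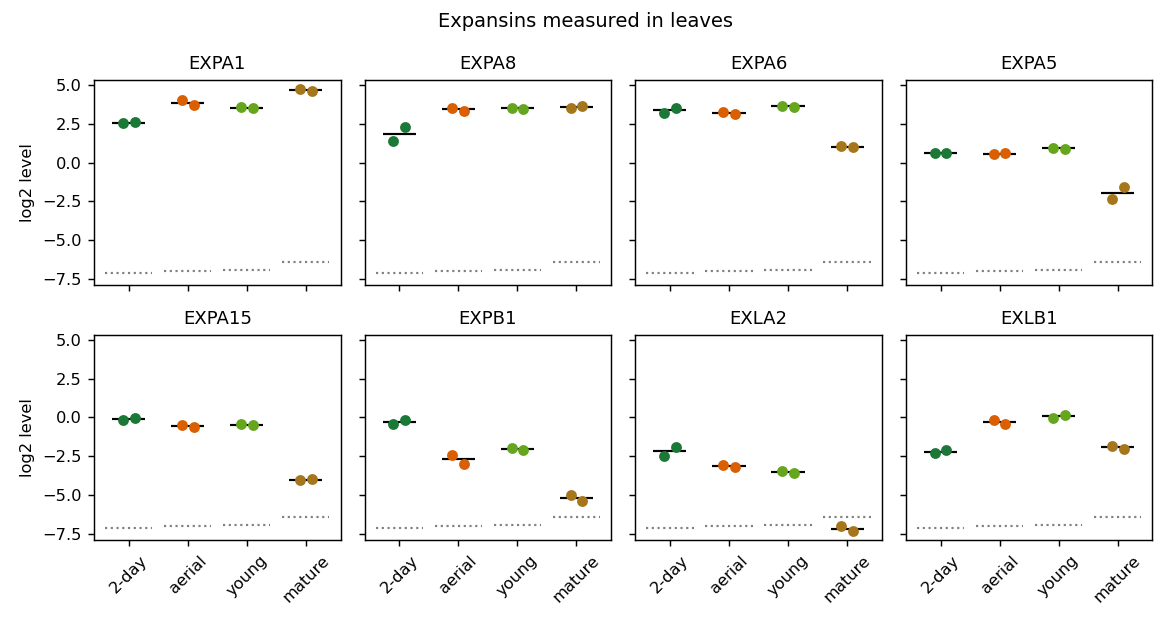
Levels (log2 signal minus the array's 75th percentile) of 8 expansins measured in leaves, on each array (points), with group means (black bars) and the mean of the lowest signals flagged as well above background in each group (dotted). EXPA1 is highest in mature leaves, EXPA8 is level across the 21-day groups, the mature points of EXPA6, EXPA5, EXPA15, EXPB1 and EXLA2 lie below all others, and EXLB1 is high in the aerial part and young leaves.

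A set of 6 members was higher on both aerial arrays than on all 4 leaf arrays: EXPA11, EXPA17, EXPA20, EXPB3, EXLA2 and EXLA3 (7.97% of genes tested). The aerial part holds the stem, the shoot apex and any flower buds besides leaves. EXPA17, known from lateral root formation, had levels of -0.57 and -1.19 in the 2-day plants, -3.29 and -3.20 in the aerial part, -8.44 and -7.79 in young leaves and -5.65 and -7.60 in mature leaves, of which only the first mature array was well above background. EXLA3 (AT3G45960) had -4.35 and -4.37 in the 2-day plants, -3.78 and -4.22 in the aerial part and -6.75 and -7.30 in young leaves, with 1 of the young and none of the mature arrays detected. Its other kept probe was detected on both young arrays, at -5.47 and -4.99, and these overlapped its aerial values of -5.33 and -4.84, so the place of EXLA3 in this set rests on 1 probe. Against the mean of both leaf classes, EXPB3 was higher in the aerial part by 2.49 ± 0.10 on the log2 scale (limma, adjusted p = 3.69e-05), with all arrays measured. EXPA17 and EXLA3 were called higher too, by 4.12 ± 0.55 and 3.49 ± 0.36, but each was detected on only 1 of the 4 leaf arrays, so that these sizes rest on signals near the floor. The other probe of EXLA3 gave 1.78 ± 0.19. In this contrast 13 of 20 measurable members were higher and 1 was lower, against 17.7% and 3.46% of measurable genes. The leaf mean includes mature leaves, where most leaf-expressed members were lower than in young leaves. Among the 13, EXPA5, EXPA6, EXPA13, EXPA15, EXPB1 and EXLB1 had lower means in the aerial part than in young leaves. EXPA3 and the set of 6 above had higher ones. The aerial part was not tested against young leaves alone. The count of higher members was 8 without replicate 1 of the aerial part. The lone lower member was EXPA9, at -0.32 ± 0.08 (limma, adjusted p = 0.0349), a call lost without either aerial replicate, either young leaf replicate or replicate 2 of mature leaves.

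Markers of other tissues were counted in the same contrast, in which 17.7% of measurable genes were higher and 3.46% lower. Of 8 measurable root hair genes 3 were higher in the aerial part and 1 lower, and of 7 other root markers 2 were higher. Among them RSL2, undetected on all 4 leaf arrays, was at least 1.93-fold higher in the aerial part. For RBOHC, also undetected in leaves, the bound was at least 3.37-fold higher. PYK10, which encodes a major beta-glucosidase of the root (AT3G09260), stood at 3.23 and 2.93 in the aerial part against -1.98 to -1.18 on the leaf arrays. Of the floral list 6 of 9 tested genes were higher in this contrast, as were 8 of 8 genes of dividing cells. All 8 of the latter had lower means in the aerial part than in young leaves, as did SEP1 and COW1 among the higher genes. The summed level of dividing-cell genes was 4.55 and 5.14 in the aerial part, 6.60 and 6.55 in young leaves and 0.346 and 0.325 in mature leaves. RSL2, RBOHC and PYK10 were singled out after their values were seen, and the part of these lists in the result was not tested. The aerial arrays and the leaf arrays lay on different slides, so that slide and group cannot be told apart in these values.

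Young leaves were set against the seedling as a further comparison, with the same limit on slides. Of the 25 members 17 were lower in young leaves and 3 higher, where 38.9% and 34.5% of measurable genes were. The 17 include the 5 members detected in the 2-day plants alone, for which a rise was hardly possible. With only probes detected on all arrays, 9 members were lower, and all genes were not counted under that filter here. The 3 higher members were EXLB1 (2.29 ± 0.14), EXPA8 (1.69 ± 0.28) and EXPA1 (0.96 ± 0.11). EXPA5, EXPA6 and EXPA10, with log2 differences of 0.28, 0.28 and 0.04, were not called, and neither were EXPA4 and EXPA11. The other probe of EXPA5 was called higher in young leaves (0.69 ± 0.12, limma, adjusted p = 0.0025), as was the mean over its probes (0.49). EXPA6 was called higher with quantile scaling (0.28) and median scaling (0.45). EXPA17 was at least 66.7-fold lower in young leaves than in the 2-day plants, and EXPB3, not lower in the aerial part, had a log2 difference of -1.07 ± 0.11 in young leaves (limma, adjusted p = 0.000264). EXLA3 had a log2 difference of -2.67 ± 0.41 (limma, adjusted p = 0.0017), and of -0.70 ± 0.22 by its other probe.

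The plasma membrane proton pumps and the SAUR genes act in acid growth together with the expansins: the AHA pumps export the protons, and SAUR proteins of the SAUR19 and SAUR63 clades keep those pumps active. Of the 9 tested pumps 3 were higher and 3 lower in the aerial part than in the 2-day plants, close to the shares of all measurable genes (34.8% and 40.4%). In mature against young leaves 3 were higher and 3 lower, again close to all genes (35.9% and 38.1%). AHA7 (AT3G60330), a pump expressed in root hairs, had a log2 change of -4.25 ± 0.29 and AHA2 (AT4G30190), the main root pump, of -2.63 ± 0.10 in the first comparison (limma, adjusted p = 4.49e-05 and 4.54e-06). In the second, AHA10 (AT1G17260) rose by 1.68 ± 0.16 and AHA3 (AT5G57350), a pump of phloem companion cells, by 1.50 ± 0.09. AHA3 had also risen in the first comparison, by 1.81 ± 0.09, as EXPA1 had.

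The SAUR genes were higher where most expansins were lower. All 13 tested genes were higher in the aerial part than in the 2-day plants, with a median of 2.67 (34.8% of all measurable genes were higher), and 12 of 13 were higher in mature than in young leaves, with a median of 0.84 (35.9%). SAUR61 (AT1G29420) rose by 4.90 ± 0.23 and 2.17 ± 0.23 in these comparisons, and SAUR65 (AT1G29460) by 4.36 ± 0.10 and 1.77 ± 0.10. The mature leaf calls depend on the scaling, since with spike-in scaling 2 genes were higher and 1 lower. Neighbouring SAUR genes are close copies, and probes of such copies may share signal. The plot of fold changes by list sets these groups side by side.

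**Figure D5:**
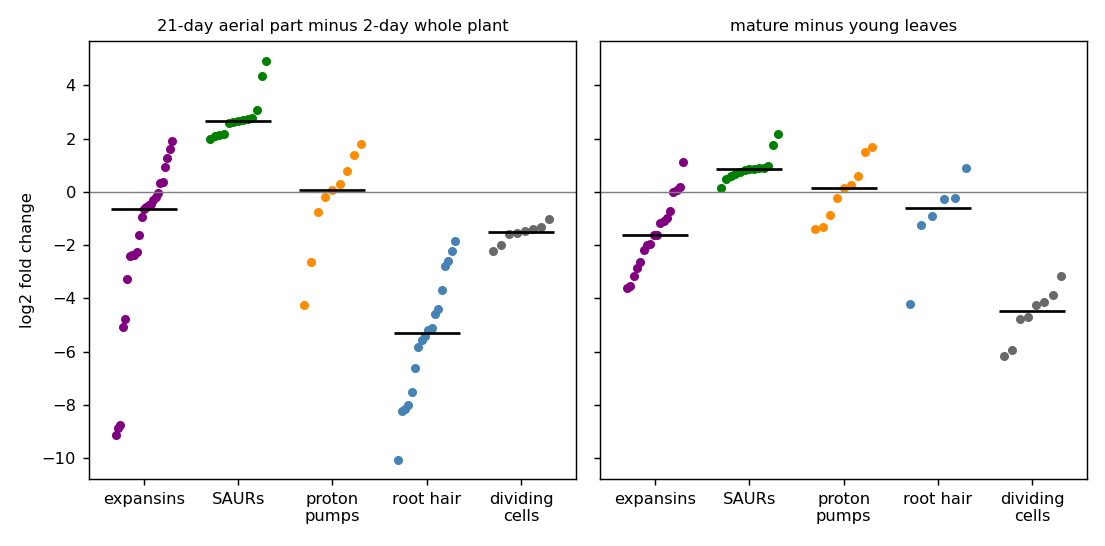
Log2 fold changes of single genes (points) and their medians (black bars) for the expansins, the SAUR and proton pump genes of acid growth, the root hair genes and the markers of dividing cells, over the genes measurable in each comparison. In mature against young leaves the SAUR points lie above 0 and most expansin points and all points of dividing cells below it, with scaling on the 75th percentile.

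Members with several probes and members without a signal set the limits of the family picture. For 8 members more than 1 probe was kept, and the probes gave the same call in 8 of 8 for the aerial part against the 2-day plants and in 6 of 8 for mature against young leaves. The exceptions were EXPA20, whose other probe had a log2 change of -1.33 ± 0.19 in mature leaves, and EXLA3, whose other probe had one of -3.27 ± 0.22. EXLA1 (AT3G45970) had a replicate offset: its second replicate was above the first by 0.71 in the aerial part, 0.68 in young leaves and 0.70 in mature leaves, against 0.13 in the 2-day plants. EXPA21 to EXPA26 are neighbours on their chromosome, and probes of such copies may share signal. Of these genes EXPA21 was well above background on 1 array, of mature leaves, at -5.36. EXPA22 to EXPA26, EXPB2 and EXPB4 did not exceed background on any array, with signals between -9.50 and -6.62.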

How the data were processed

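Total RNA was hybridised to 8 one-colour Agilent arrays, with 4 groups of 2 biological replicates. The deposited scanner files hold intensity values that the authors obtained with Agilent Feature Extraction 10.10.1.1, per the file headers, with the processed signal background-subtracted and not scaled between arrays. The deposited value table holds the same intensity times 1 factor per array, from 2.08 to 4.44, and served as an alternative. The basis of that factor is not given in the sources used here.

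Outlier spots (5 to 13 per array) were left out, and 0 spots were saturated. Signals were averaged per probe, log2-transformed and set against the array's 75th percentile over 43603 non-control probes. A probe was kept where some group had it above background in both replicates. Transcripts were assigned to loci through a RefSeq gene table of a later release than the array's grid, so coordinates are not used here.

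The 4 group means were estimated in a common linear model of the 8 arrays (limma 3.58.1, R 4.3.3), with 4 residual and 1.90 prior degrees of freedom, 2-sided, and p-values were adjusted by Benjamini-Hochberg over all 20629 genes. Calls are at an adjusted p of 0.05 and are counted for genes above background in both replicates of either group compared, a rule added after the data were seen, because dim signals follow the array's floor. Precision is limited by the number of arrays, with a median standard error of 0.11 (log2), and p-values measure the spread between these samples. The scripts were tested on simulated data.

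The expansins and the lists (11 proton pumps, 14 SAUR genes, 19 root hair genes and markers of root, flower, pollen, green leaf, seed storage and dividing cells) were chosen with earlier results of these data known. Values in every array are given for EXPA7, EXPA18, the 3 members brightest in each group, and the 4 largest rises and falls among called members of each main comparison, and some further members are named with their values. From the pump, SAUR and root hair lists the 2 most changed genes of a comparison are named, with RSL4 and RHD6 whatever their result. Of the 5 pollen genes 1 was tested, and it was lower in both main comparisons.

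Replicates with the same number deviated together among the 21-day groups (correlations 0.251 to 0.354 of the replicate differences) and not with the 2-day group (-0.0649 to -0.0059). The labels do not say what a number shares, and a group has only 2 replicates, so the numbers were not taken as pairs. Alternatives covered the background correction, scaling, filter, probe choice, value table, arrays fitted, variance model, replicate block, a 2-fold minimum and each array left out. Scaling on spike-in probes and counting calls without the detection rule were added after the data were seen.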

Additional observations from a re-analysis of the deposited data

How the results depend on the processing

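In the aerial part against the 2-day plants, counts of genes called were 3074 higher and 4361 lower with a 2-fold minimum, and 4399 higher with spike-in scaling, which moved the median of all genes to -0.35. Expansins higher numbered 3 with the 2-fold minimum, and expansins lower 8 when only probes detected on all arrays were kept, a filter that drops the seedling members by construction. The same filter left 2 root hair genes lower and 9 were called lower in the deposited value table. In mature against young leaves, 2637 genes were higher and 3704 lower with the 2-fold minimum, and 1763 and 13692 with spike-in scaling. Median scaling and normexp moved the median of all genes to 0.30 and 0.22 there. Expansins higher numbered 2 with normexp, 0 with spike-in scaling and 2 when genes undetected in both leaf groups also counted. Proton pumps higher numbered 5 with normexp and 5 with median scaling, and pumps lower 7 with spike-in scaling. SAUR genes higher numbered 2 with the 2-fold minimum and 2 with spike-in scaling, which called 1 lower. In young leaves against the 2-day plants, expansins lower numbered 9 with probes detected on all arrays and 11 with the value table. In the aerial part against the mean of leaves, expansins higher numbered 6 with the 2-fold minimum, and expansins lower 2 with median scaling, 0 with the value table, the 2-fold minimum or spike-in scaling, and 3 without the detection rule.

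Changes of sign are listed here where the main fit or the alternative called the gene. With normexp they were found for EXPA16 in the aerial part (0.006) and in young leaves (0.075) against the 2-day plants. In mature against young leaves they were found for EXPA4 (0.007), EXPA14 (0.060), EXPA20 (0.248), AHA4 (0.258) and AHA7 (0.306). Of these, EXPA20 and AHA4 were not called in the main fit. EXPA16 also reversed without the filter on dim probes (0.046) and, in young leaves, with quantile scaling (0.385). With spike-in scaling the mature leaf changes switched sign for EXPA8 (-0.848), EXPA11 (-0.722), AHA1 (-0.654), AHA5 (-0.321), AHA8 (-0.765), SAUR19 (-0.027), SAUR20 (-0.161), SAUR21 (-0.066), SAUR22 (-0.072), SAUR23 (-0.043), SAUR62 (-0.320), SAUR66 (-0.770), AT1G29510 (-0.428) and AT1G29490 (-0.229). Of these, EXPA8, EXPA11, AHA1, AHA8 and SAUR66 were not called in the main fit. Apart from the shift of scale, the cause was not tested.

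With each array left out in turn, expansins lower ranged from 14 to 15 in the aerial part against the 2-day plants and from 13 to 14 in mature against young leaves, and expansins higher from 4 to 5 and from 1 to 1. The lone array of a group was then assumed to vary like the other groups. In the aerial part against leaves, expansins higher ranged from 8, without replicate 1 of the aerial part, to 14, and expansins lower from 0 to 1. With the replicate number as a block, expansins higher and lower numbered 4 and 16 in the aerial part against the 2-day plants, and 1 and 14 in mature against young leaves. The block added the fall of EXLA1 (-0.50, adjusted p = 0.0441) and ended the call of EXPB3. Among the 21-day groups it added calls for EXLA1 in the aerial part against leaves (1.1, adjusted p = 0.0078) and AHA1 in mature leaves (0.25, adjusted p = 0.0395), and ended that of AHA7 there (-0.88, adjusted p = 0.0509). A slide block could not be fitted for the contrasts across slides, since each group lay on 1 slide, and within a slide it adds nothing. Promoter motifs and protein identity are not analysed here. Signals near the array floor limit EXPA4, EXPA16, EXLA2 and EXLA3.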
